A study of Homo sapiens with 6 samples.

Results

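The genes described here are 44 factors of homologous recombination, the Fanconi anaemia pathway and the damage signalling around them, chosen by name from a table of 38637 genes. The table comes from RNA sequencing of OVCAR8 cells, an established human ovarian cancer line, grown for 72 h with the solvent DMSO (3 samples) or with 2 nM pladienolide B (3 samples). Pladienolide B is a small molecule that binds SF3B1, the part of the U2 snRNP that recognises the branch point of introns, and so hinders splicing. The labels name no genetic change in either group, and OVCAR8 is the single line measured. Nothing in them says whether the 3 samples of a group came from separate cultures, so the p-values measure the spread between these samples, which may be technical.

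Homologous recombination repairs a DNA double-strand break by copying the intact sister chromatid. The MRE11-RAD50-NBN complex senses the break, ATM and ATR signal it, nucleases trim the ends, and the BRCA1 and BRCA2 complexes prepare the trimmed strand for the exchange with its matching partner. The Fanconi proteins detect crosslinks between DNA strands, attach ubiquitin to FANCD2 and FANCI, and call in nucleases such as MUS81 on the scaffold SLX4. Many high-grade serous ovarian cancers have lost part of this machinery, which is the ground on which PARP inhibitors are given. Many of these genes are transcribed mainly in cells that replicate their DNA, often through E2F factors, and several are long genes that are known to need CDK12 for full-length transcripts.

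Promoter sequences from RefSeq (GRCh38.p14, 250 bases before to 50 after the start) were matched for 39 of the 44 genes. The RefSeq start was not always at the edge of the gene as listed in the data. For BRCA1 the window (chr17:43170278-43170577) lay upstream of the listed gene, whose start is at 43125364. For RAD52 (chr12:949645-949944) it lay inside the gene, whose listed start is at 991195. The windows of MRE11 (chr11:94493795-94494094, listed start at 94512701), RBBP8, RAD51B, ATM, BRIP1, MDC1, CHEK1, RAD51C and FANCL also lay inside their genes, away from the listed start. The matches printed below for ATM, BRIP1 and MDC1 come from such windows. The sequence at these listed starts was not searched. The E2F consensus was searched on both strands as TTTCCCGC, TTTCGCGC, TTTGCCGC or TTTGGCGC. It was present in 6 of these 39 promoters (15.4%), in 5.19% of the promoters of tested genes and in 3.33% of all promoters in the table. The matches are shown because this is the element through which S-phase genes are classically controlled, with the consensus in capitals, each on the strand of its gene, 5′ to 3′.
EXO1 (chr1:241848197-241848226, plus strand): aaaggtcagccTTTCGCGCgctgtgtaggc
FANCA (chr16:89816801-89816830, minus strand): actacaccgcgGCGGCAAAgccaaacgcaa
FANCC (chr9:95317863-95317892, minus strand): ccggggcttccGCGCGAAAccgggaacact
FANCC (chr9:95317737-95317766, minus strand): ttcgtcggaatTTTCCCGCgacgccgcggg
FANCD2 (chr3:10026424-10026453, plus strand): cgtcgggcctgGCGGGAAAgtcgaaaacta
TOPBP1 (chr3:133661930-133661959, minus strand): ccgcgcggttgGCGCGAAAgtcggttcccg
XRCC2 (chr7:152676102-152676131, minus strand): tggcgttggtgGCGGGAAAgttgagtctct
FANCC is the promoter with more than a single match, and it held a match in each orientation.

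The CHR element TTTGAA, through which genes of G2 and mitosis are repressed in resting cells, was searched in the same way. It occurred in 4 of the 39 promoters (10.3%) and in 9.93% of the promoters of tested genes, so its share was close to the background. Its matches are shown because 3 of the 4 lie at genes that fell with the drug, a reason taken from these same data. Fallen genes held 12 of the 39 promoters searched, and the share that fell among all tested genes with a match was not counted.
ATM (chr11:108223036-108223065, plus strand): gtcacgcagggTTTGAAccggaagcgggag
BRIP1 (chr17:61863749-61863778, minus strand): tatcgccggtTTCAAAagtcaaactgagac
FANCC (chr9:95317930-95317959, minus strand): atTTTGAAcagaatatggaagaagccagcg
MDC1 (chr6:30717393-30717422, minus strand): gacaccacctaTTTGAActctaagggggcg
The CCAAT box, searched as CCAAT on both strands, was in 17 promoters (43.6%) against 36.0% of the promoters of tested genes. A match describes the letters in the window and does not show that a factor binds there.

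The samples held between 22621338 and 26130882 reads on genes. The deposited values are reads per gene adjusted to a common library size, called adjusted reads below, and they do not tell spliced from unspliced RNA or an isoform from another. The line expressed PAX8, KRT7, KRT8, KRT18 and MSLN, whereas 5 of 11 epithelial ovarian markers (WT1, KRT19, MUC16, CDH1 and SOX17) stayed under 50 adjusted reads in all samples. All 5 leukocyte markers and all 6 endothelial and fibroblast markers were also under 50 in every sample. DMSO replicate 2 stood apart: its reads differed from those of the other DMSO samples with a chi-square per degree of freedom of 7.29 and 7.20, against 2.00 between the other two. It was the highest DMSO sample for 24 of the 44 genes (54.5%), compared with 41.1% of all tested genes, so the counts of each group of genes without it are given beside the results.

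All 44 genes were expressed well above the filter on low values. Their means in DMSO ran from 140.4 adjusted reads (RAD51B) to 3340 (TOPBP1), with a median of 995, and none was under 100. Replicates were close, with a median coefficient of variation of 4.32% in DMSO and 3.92% in pladienolide B.

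After 72 h of pladienolide B, 20 of the 44 genes differed at an adjusted p below 0.05 (limma on log2 of adjusted reads plus 1, Benjamini-Hochberg over 16178 genes). Of these, 14 fell and 6 rose. This is 45.5% of the genes, and 47.6% of all tested genes passed the same threshold, so the number of changed genes was close to the background. Those that fell made up 31.8% of the genes against 25.2% of all tested genes, and those that rose 13.6% against 22.4%. Without DMSO replicate 2, 22 of the 44 passed, where 48.4% of all tested genes did. Of these, 10 rose (22.7%, against 23.5% of all tested genes) and 12 fell (27.3%, against 25.0%), so without that sample the split by direction was close to the background too. Over the 44 genes the median change on the log2 scale was -0.09, against -0.004 over all tested genes. Measured in bulk, lower RNA per cell and fewer cells in the phase of the cycle that uses a gene cannot be told apart.

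The changes were small with few exceptions. TP53BP1 and FANCC fell by at least 1.5-fold, as did 6.79% of all tested genes, and no member rose by as much, as 4.73% of all tested genes did. Only TP53BP1 of the 44 was called with a change of at least 2-fold, as were 635 of the 16178 tested genes. Just outside the 1.5-fold limit was BRIP1, which passed it when DMSO replicate 1, DMSO replicate 3 or pladienolide B replicate 3 was left out. In 27 of the 44 genes (61.4%) all samples of a group lay above all samples of the other, against 55.3% of tested genes.

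**Figure D1:**
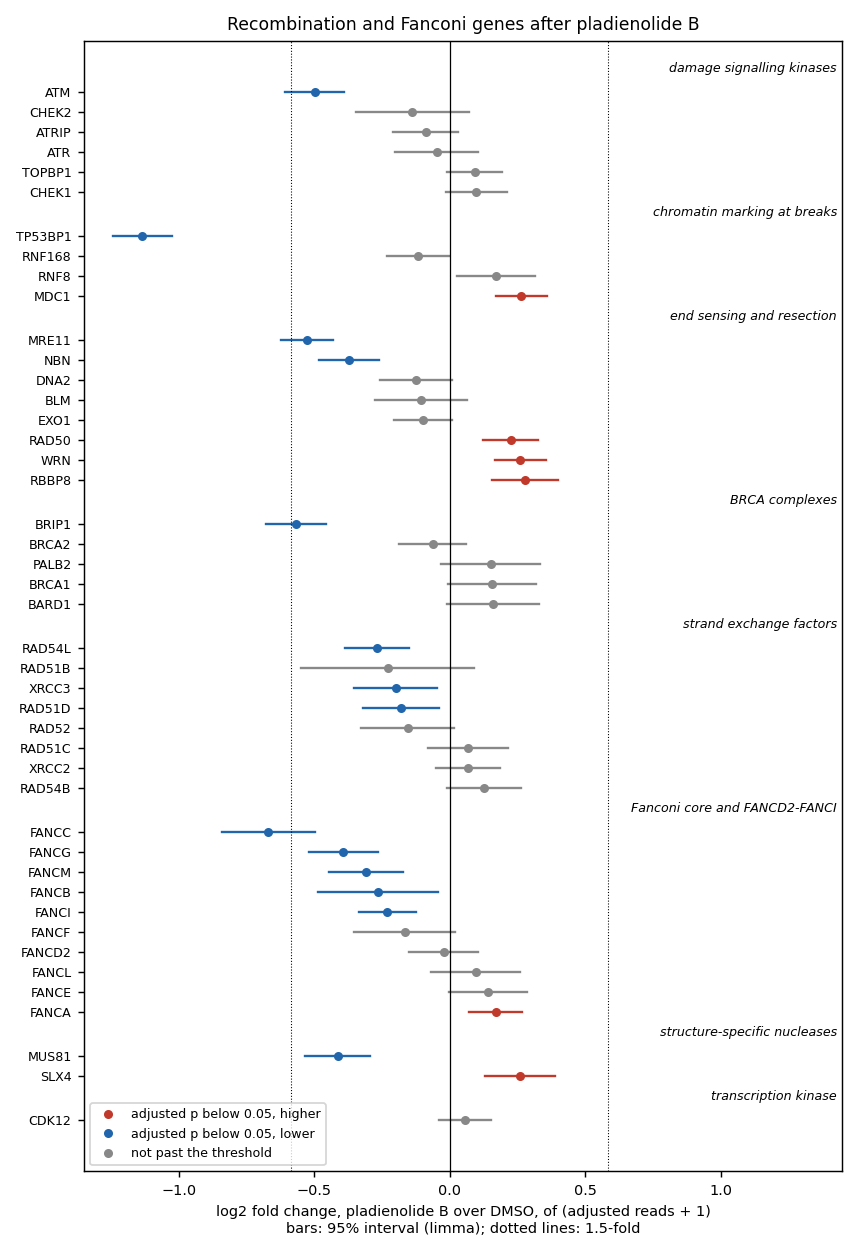
Log2 fold change of each of the 44 genes in pladienolide B over DMSO (horizontal axis), grouped by role, with points for the estimate and bars for its 95% interval from limma. Red genes rose and blue genes fell at an adjusted p below 0.05, grey genes did not pass, and dotted lines mark 1.5-fold. TP53BP1 at -1.13 lies apart from the others, which run from -0.67 to 0.28.

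The largest change was in TP53BP1 (chr15:43403061-43510640, minus strand), which encodes 53BP1, the chromatin reader that shields broken ends from resection and favours end joining over recombination. It read 2620, 2663 and 2449 adjusted reads in DMSO and 1167, 1127 and 1226 in pladienolide B. Every treated sample was far below every control. The mean fell from 2578 ± 113 to 1173 ± 49.8 (SD, n = 3 each), which left 45.5% of the DMSO level. The log2 fold change was -1.13 (SE 0.05, limma adjusted p = 4.9e-11), and it stayed between -1.17 and -1.11 in all alternatives tried, with adjusted p between 1.4e-71 and 0.00066. TUBGCP4, on the opposite strand, shares 28.8% of the exonic bases of TP53BP1 and itself changed by -0.29 on the log2 scale. Since the strand setting of the counting is not given in the sources used here, reads in the shared stretch cannot be assigned with certainty, and their part in the result was not tested.

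The other genes that mark chromatin at breaks moved less. MDC1, the scaffold that binds phosphorylated H2AX and recruits RNF8, read 2526, 2423 and 2461 in DMSO and 2993, 3053 and 2856 in pladienolide B. It rose by 0.26 on the log2 scale (adjusted p = 0.00013), with no overlap between the groups. Its antisense gene MDC1-AS1 covers 9.20% of its exonic bases at a mean of 85.3 adjusted reads in DMSO. RNF8, the ubiquitin ligase recruited by MDC1, had a log2 fold change of 0.17 (95% interval 0.03 to 0.31) and an adjusted p of 0.0503, just outside the threshold. It passed in 5 of the 15 alternatives, among them leaving out DMSO replicate 1 or 2, and its adjusted p ran from 0.033 to 0.25 over all of them. RNF168, which extends the ubiquitin mark that 53BP1 reads, had a log2 fold change of -0.12 (adjusted p = 0.090).

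Among the kinases that signal damage, ATM fell and ATR did not pass the test. ATM (chr11:108222484-108369102), the kinase activated by double-strand breaks, read 2583, 2676 and 2682 in DMSO and 1833, 1774 and 2019 in pladienolide B. The groups were well separated. Its mean went from 2647 ± 55.4 to 1875 ± 128 (SD, n = 3), or 70.9% of DMSO, with a log2 fold change of -0.50 (SE 0.05, limma adjusted p = 6.8e-07). ATR (chr3:142449235-142578793, minus strand), the kinase that answers to single-stranded DNA at stalled forks, read 711, 861 and 748 in DMSO and 724, 736 and 778 in pladienolide B. These ranges overlapped, and DMSO replicate 2 alone held the upper end. Its log2 fold change was -0.05 (SE 0.07, 95% interval -0.20 to 0.11, adjusted p = 0.62), and its estimate was 0.03 without that sample.

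The partners of ATR lay near zero. TOPBP1, which activates ATR, had a log2 fold change of 0.09 (adjusted p = 0.12), and CHEK1, the effector kinase of ATR, 0.10 (adjusted p = 0.14). TOPBP1 passed only without DMSO replicate 2, at 0.13 (adjusted p = 0.010, from 0.010 to 0.42 over all alternatives). CHEK2, the effector kinase of ATM, had -0.14 (adjusted p = 0.27), and its pseudogene CHEK2P2 was at 0 in all samples. ATRIP, the binding partner of ATR, had -0.09 (adjusted p = 0.22). TREX1, on the same strand, shares 26.7% of the exonic bases of ATRIP and changed by -0.30 (adjusted p = 0.0045). A readthrough transcript, ATRIP-TREX1, is also listed, at nearly the same level as ATRIP (means of 1043 in DMSO and 982 in pladienolide B). The values of ATRIP are therefore uncertain.

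The genes that sense and trim DNA ends split in direction, and the split ran through the MRE11-RAD50-NBN complex. MRE11, its nuclease, read 2424, 2578 and 2491 in DMSO and 1726, 1731 and 1742 in pladienolide B, and changed by -0.53 on the log2 scale (adjusted p = 9.2e-08). NBN, the subunit that brings in ATM, read 2535, 2848 and 2589 in DMSO and 1973, 2051 and 2135 in pladienolide B, a change of -0.37 (adjusted p = 2.0e-05). RAD50, the ATPase that bridges the ends, read 1686, 1684 and 1712 in DMSO and 1898, 1996 and 2052 in pladienolide B, a rise of 0.23 (adjusted p = 0.00096). In each of the 3 genes the groups were separate, with MRE11 and NBN below their controls and RAD50 above. The calls on these genes held in all alternatives tried.

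RBBP8 encodes CtIP, the cofactor that starts resection with MRE11, and had the largest rise of the 44 genes. It read 1386, 1501 and 1328 in DMSO and 1784, 1615 and 1710 in pladienolide B, with a log2 fold change of 0.28 (SE 0.06, adjusted p = 0.00071). WRN, the helicase of Werner syndrome, read 1864, 1884 and 1890 in DMSO and 2266, 2207 and 2284 in pladienolide B, and rose by 0.26 (adjusted p = 0.00014). Both genes were higher in every treated sample than in any control. The factors of long-range resection did not pass. EXO1 had a log2 fold change of -0.10 (adjusted p = 0.12), DNA2 of -0.12 (adjusted p = 0.11) and BLM of -0.11 (adjusted p = 0.30). DNA2 passed only without DMSO replicate 1, at -0.18 (adjusted p = 0.034, from 0.034 to 0.39 over all alternatives).

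BRCA1 and BRCA2 did not pass the test, and the helicase partner of BRCA1 fell. BRCA1 (chr17:43044295-43125364, minus strand), which promotes resection and brings in PALB2, read 511, 560 and 480 in DMSO and 598, 538 and 589 in pladienolide B. The highest control lay among the treated samples. The mean was 517.1 ± 40.7 in DMSO and 575.3 ± 32.2 in pladienolide B (SD, n = 3), with a log2 fold change of 0.15 (SE 0.08, 95% interval -0.01 to 0.32, limma adjusted p = 0.11). That high control is DMSO replicate 2, and without it the change was 0.21 with an adjusted p of 0.026, the lowest of the alternatives, which reached 0.36.

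BRCA2 (chr13:32315508-32400268), which acts on the trimmed strand after BRCA1, read 1019, 938 and 1006 in DMSO and 982, 909 and 944 in pladienolide B. The groups overlapped. Its mean was 987.4 ± 43.7 in DMSO and 944.8 ± 36.4 in pladienolide B, with a log2 fold change of -0.06 (SE 0.06, 95% interval -0.19 to 0.06, limma adjusted p = 0.40). BARD1, the obligate partner of BRCA1, had a log2 fold change of 0.16 (adjusted p = 0.11), and PALB2, the bridge between BRCA1 and BRCA2, 0.15 (adjusted p = 0.16). These intervals leave out a 1.5-fold change for the 4 genes, but not smaller ones.

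BRIP1, also known as FANCJ, is the helicase that binds BRCA1 and unwinds DNA at crosslinks and G-quadruplexes. It read 1904, 2054 and 1906 in DMSO and 1336, 1269 and 1351 in pladienolide B. The treated level was 67.4% of that in DMSO, with a log2 fold change of -0.57 (SE 0.05, adjusted p = 1.5e-07), and the samples of the groups lay far apart. Its promoter is among those with a CHR match printed above, and it held no E2F match.

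**Figure D2:**
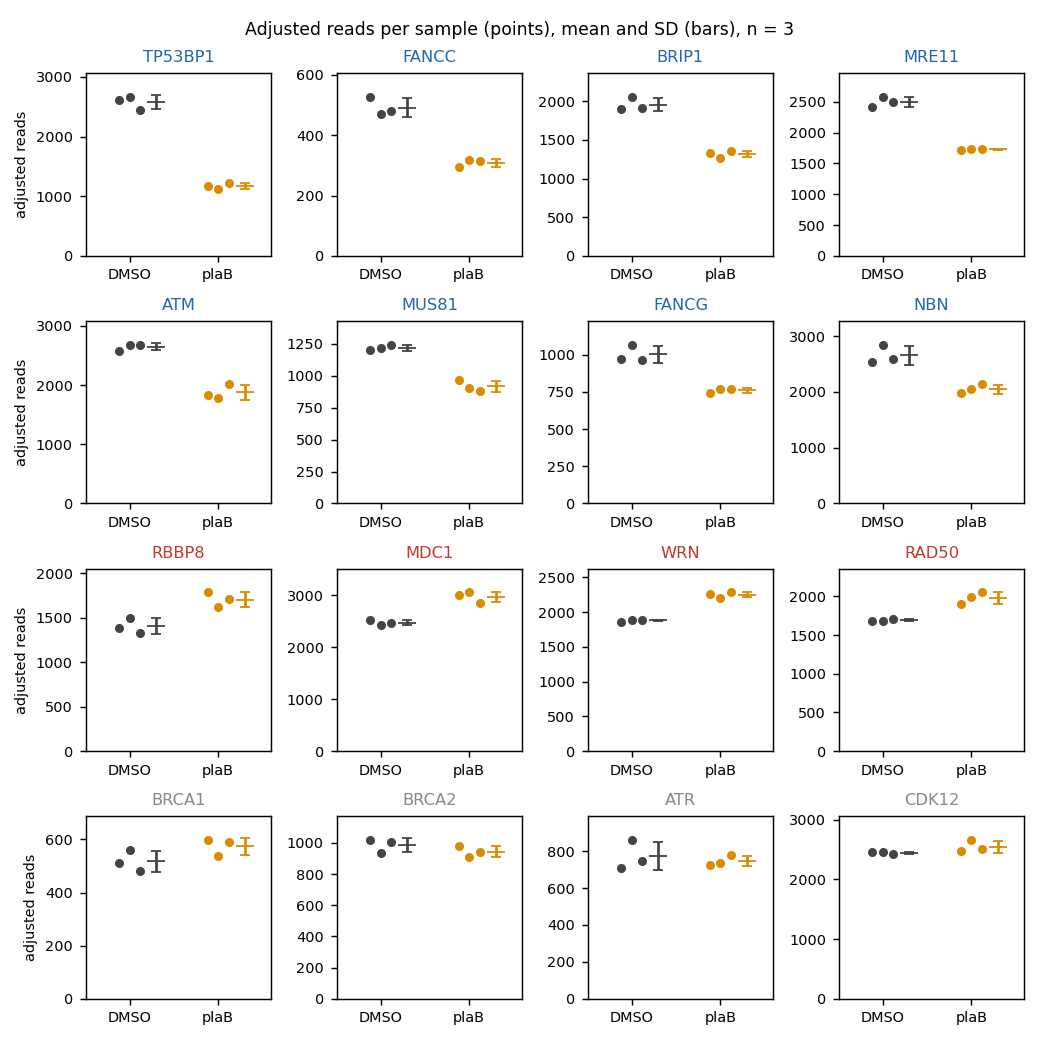
Adjusted reads in each sample (vertical axis, starting at 0) for 16 genes in DMSO (dark) and pladienolide B (orange, plaB), with points for samples and bars for the mean and SD of 3 samples. Gene names are blue where the gene fell, red where it rose and grey where it did not pass. The treated samples of TP53BP1 read 1127 to 1226 against 2449 to 2663 in DMSO, whereas those of BRCA2 (909 to 982) overlap their controls.

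The strand exchange factors changed little. RAD54L, a motor protein that moves along the duplex, read 1152, 1115 and 1179 in DMSO and 938, 931 and 992 in pladienolide B, and fell by 0.27 on the log2 scale (adjusted p = 0.00076). LRRC41, on the opposite strand, shares 19.9% of its exonic bases and moved the other way, by 0.26. RAD51D fell from 612.0 ± 14.4 to 540.8 ± 14.0 (log2 fold change -0.18, adjusted p = 0.036) and XRCC3 from 489.3 ± 17.1 to 426.0 ± 1.91 (-0.20, adjusted p = 0.033). Both calls were near the threshold and were lost in several alternatives, over which the adjusted p reached 0.098 for RAD51D and 0.088 for XRCC3. A readthrough transcript on the same strand, RAD51L3-RFFL, is listed over RAD51D at a mean of 428.6 adjusted reads in DMSO with a log2 fold change of 0.10, so the values of RAD51D are uncertain. The exons of XRCC3 overlap by 76.7% with KLC1 on the opposite strand, which is read at a mean of 5104 in DMSO, so the XRCC3 value is uncertain where strand was not used.

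The rest of this class did not pass. RAD51C and XRCC2, which act in complexes with XRCC3 and RAD51D, had log2 fold changes of 0.07 each (adjusted p = 0.46 and 0.35). RAD51B, the least abundant of the 44 genes, read 128, 136 and 157 in DMSO and 136, 97 and 128 in pladienolide B, with a log2 fold change of -0.23 and the widest interval, -0.55 to 0.09. RAD52, which anneals single strands, had -0.16 (adjusted p = 0.12). RAD54B, a relative of RAD54L, had 0.13 (adjusted p = 0.12) and passed only without DMSO replicate 2, at 0.17 (adjusted p = 0.038, from 0.038 to 0.39 over all alternatives). Its exons overlap by 66.0% with FSBP on the same strand, which changed by -0.78.

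Among the 10 genes of the Fanconi core complex and its substrates, 5 fell and 1 rose, where 25.2% of all tested genes fell and 22.4% rose. The numbers were the same without DMSO replicate 2. FANCC (chr9:95099054-95317730, minus strand), a bridging subunit of the core complex, read 527, 470 and 479 in DMSO and 294, 317 and 315 in pladienolide B. No treated sample came near a control. The mean fell from 491.8 ± 30.5 to 308.5 ± 12.6 (SD, n = 3), or 62.7% of DMSO, with a log2 fold change of -0.67 (SE 0.08, limma adjusted p = 4.1e-06). It stayed between -0.70 and -0.62 in the alternatives, with adjusted p between 1.5e-09 and 0.0018. AOPEP, on the opposite strand, shares 0.894% of its exonic bases at a mean of 119.7 adjusted reads in DMSO.

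FANCG, a scaffold of the core complex, read 971, 1067 and 968 in DMSO and 743, 773 and 772 in pladienolide B, and fell by 0.39 on the log2 scale (adjusted p = 5.1e-05). FANCM, the translocase that anchors the complex to DNA, read 823, 812 and 746 in DMSO and 643, 618 and 659 in pladienolide B, and fell by 0.31 (adjusted p = 0.00086). FANCI, which is ubiquitinated with FANCD2, read 3350, 3448 and 3175 in DMSO and 3012, 2706 and 2781 in pladienolide B, and fell by 0.23 (adjusted p = 0.0010). The controls of all these genes lay above the treated samples. POLG, the mitochondrial polymerase gene that overlaps 2.57% of the exonic bases of FANCI from the opposite strand, changed by -1.12 (adjusted p = 8.0e-11).

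FANCB, a core subunit encoded on the X chromosome, read 285, 282 and 299 in DMSO and 263, 207 and 254 in pladienolide B, with a log2 fold change of -0.27 (adjusted p = 0.046). This call was lost in 9 of the 15 alternatives. Of these, 5 kept all samples (no filter, no variance trend, edgeR with TMM or RLE, and DESeq2) and 4 left out a sample. Without pladienolide B replicate 2, which is the lowest, the change was -0.16 with an adjusted p of 0.23, the highest of its alternatives, which began at 0.032. FANCA, the subunit most often mutated in Fanconi anaemia, went the other way and read 1906, 1995 and 1929 in DMSO and 2126, 2187 and 2246 in pladienolide B, a rise of 0.17 (adjusted p = 0.0062). ZNF276, on the opposite strand, shares 19.6% of the exonic bases of FANCA and had a log2 fold change of -0.05.

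FANCD2, the central substrate of the pathway, read 1050, 1194 and 1095 in DMSO and 1072, 1070 and 1144 in pladienolide B. Its log2 fold change was -0.02 (95% interval -0.15 to 0.11, adjusted p = 0.79), and the estimate was 0.03 without DMSO replicate 2, its highest control. FANCL, the ubiquitin ligase, had a log2 fold change of 0.10 (adjusted p = 0.33), FANCE, which recruits FANCD2 to it, 0.14 (adjusted p = 0.10), and FANCF, an adaptor of the complex, -0.17 (adjusted p = 0.13). Of the genes with an E2F match printed above, FANCC fell, FANCA rose, and EXO1, FANCD2, TOPBP1 and XRCC2 did not pass.

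The structure-specific nucleases divided in the same way as the end-sensing complex. MUS81, which cuts recombination intermediates, read 1198, 1216 and 1243 in DMSO and 967, 904 and 877 in pladienolide B. It fell to 75.1% of DMSO, with a log2 fold change of -0.41 (adjusted p = 1.5e-05). SLX4, the scaffold that holds MUS81 and other nucleases, read 726, 682 and 719 in DMSO and 826, 880 and 843 in pladienolide B, and rose by 0.26 (adjusted p = 0.0021). Neither gene had overlapping groups.

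CDK12 (chr17:39461486-39567560), the kinase of RNA polymerase II that supports transcription of long repair genes, read 2451, 2461 and 2431 in DMSO and 2468, 2659 and 2513 in pladienolide B. The treated samples were all above the controls, but by little. The mean was 2447 ± 15.1 in DMSO and 2547 ± 99.5 in pladienolide B (SD, n = 3), with a log2 fold change of 0.06 (SE 0.05, 95% interval -0.04 to 0.15, limma adjusted p = 0.32). Its cyclin CCNK had a log2 fold change of 0.12 (adjusted p = 0.053) and the related kinase CDK13 of -0.08 (adjusted p = 0.27). CCNK lay close enough to the threshold to pass in 5 of the alternatives.

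Gene structure was set beside the changes as a description. Over the 44 genes, Spearman's rho of the log2 fold change with gene span was -0.09, with the number of exons -0.06 and with transcript length 0.09, and over 15057 tested genes with a gene model the same values were -0.04, -0.08 and 0.02. All points come from the same 6 samples. The genes that fell spanned from 6104 bases (FANCG) to 218677 (FANCC), and those that rose from 18182 (MDC1) to 142390 (WRN). The median span of the 44 genes was 69124 bases. The 863318 bases of RAD51B are the longest span of the 44.

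In the promoters, of the 12 fallen genes with a sequence, 1 held an E2F match, 8 a CCAAT box and 3 a CHR element. Of the 5 risen genes, 1 held an E2F match, 2 a CCAAT box and 1 a CHR element. Of the 22 that did not pass, the numbers were 4, 7 and 0. These are counts of letters in few promoters and carry no test. The same shares among all tested genes that fell, rose or did not pass were not counted. Some windows, among them those of MRE11, ATM and BRIP1, lay away from the listed start.

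The other genes of these pathways, were read from lists written with earlier results of these data known. Of 35 further recombination genes tested, 6 rose and 12 fell, with a median log2 fold change of -0.08. The called share of 51.4% was close to the 47.6% of all tested genes, and 7 rose and 11 fell without DMSO replicate 2. RMI2, which with BLM dissolves crossed strands, fell by 0.76, the helicase RTEL1 fell by 0.56, and ABRAXAS1, which holds BRCA1 at ubiquitin marks, fell by 0.52. Of 18 further Fanconi genes, 2 rose and 5 fell (38.9% called, against 47.6% of all tested genes), with a median of -0.13. Without DMSO replicate 2, 2 rose and 4 fell (33.3% called, against 48.4% of all tested genes). CENPS, a partner of FANCM, fell by 0.39, though its adjusted p of 0.0093 became 0.051 without DMSO replicate 2 and at most 0.056 over the alternatives. USP1, which removes ubiquitin from FANCD2, fell by 0.28, and the ligase RFWD3 rose by 0.26.

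Of 15 further checkpoint genes, 5 rose and 4 fell (33.3% and 26.7%, against 22.4% and 25.2% of all tested genes), with a median of -0.04, and 6 rose and 4 fell without DMSO replicate 2. HUS1, a ring subunit of the clamp that activates ATR through TOPBP1, rose by 0.74 on the log2 scale (adjusted p = 3.8e-06). The phosphatase CDC25B fell by 0.62, and the histone H2AX, whose phosphorylated form MDC1 binds, fell by 0.56. Of 20 end joining genes, 3 rose and 7 fell, so 10 of 20 were called against 47.6% of all tested genes, with a median of -0.11, and 5 rose and 8 fell without DMSO replicate 2. SHLD3, a subunit of the shieldin complex that acts downstream of 53BP1, fell by 0.93, from a low mean of 91.1 adjusted reads to 47.6. The other listed subunits did not pass, SHLD1 at 0.12 (limma adjusted p = 0.77) and SHLD2 at 0.04 (adjusted p = 0.72). The end-processing factor APLF fell by 0.91, and POLQ, the polymerase of the alternative pathway, fell by 0.50.

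Of 49 genes of DNA replication and the cell cycle, 31 fell and 4 rose, so 71.4% were called against 47.6% of all tested genes, and their median log2 fold change was -0.26. Without DMSO replicate 2, 31 fell and 5 rose (73.5% called, against 48.4% of all tested genes). POLA1, the catalytic subunit of the primase-polymerase, fell by 1.02, the transcription factor E2F2 fell by 0.99 and CDC45, part of the replicative helicase, fell by 0.98. The part of the cell cycle in the changes of the recombination genes was not tested.

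**Figure D3:**
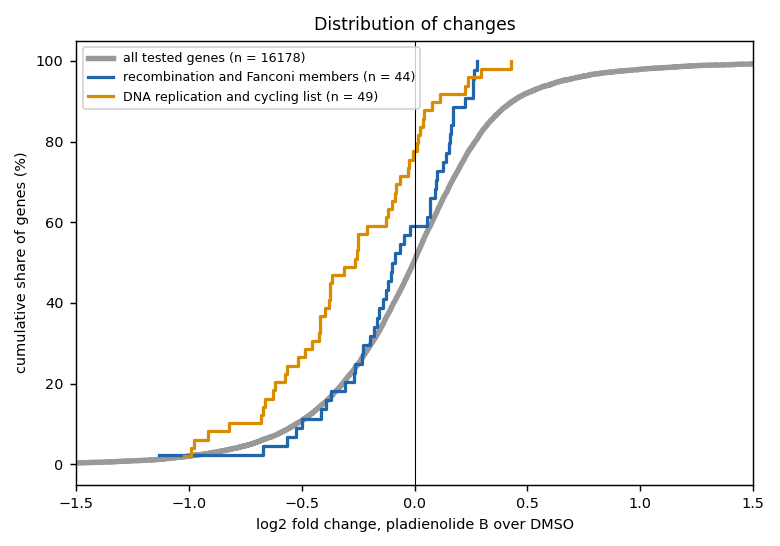
Cumulative share of genes (vertical axis, %) by log2 fold change in pladienolide B over DMSO (horizontal axis), for all 16178 tested genes (grey), the 44 recombination and Fanconi genes (blue) and 49 replication and cycling genes (orange). The blue line runs near the grey one with a median of -0.09, and the orange line lies to the left of both with a median of -0.26.

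Levels between genes were compared as adjusted reads per kilobase in DMSO. Per kilobase of all exonic bases of a gene in GENCODE v44, the highest levels were those of TOPBP1 (455.3 ± 24.4, SD, n = 3) and EXO1 (372.5 ± 12.6), and the lowest that of FANCL (13.7 ± 0.583). MRE11 (325.5 ± 10.1) and MDC1 (324.1 ± 6.82), which stand next in that order, did not differ beyond their spread. This order depended on the length used. Per kilobase of the canonical transcript, a measure added after the values were seen, FANCI was highest (702.4 ± 29.2), followed by TOPBP1 (579.8 ± 31.0) and NBN (574.9 ± 36.2), whose ranges overlap, and FANCL was 14th of the 44. Low on both scales were BRCA1 (36.5 ± 2.87 per kilobase of all exonic bases and 73.0 ± 5.74 per kilobase of the canonical transcript), BARD1 (48.0 ± 1.88 and 66.4 ± 2.60) and RAD51D (54.2 ± 1.27 and 61.4 ± 1.44).

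**Figure D4:**
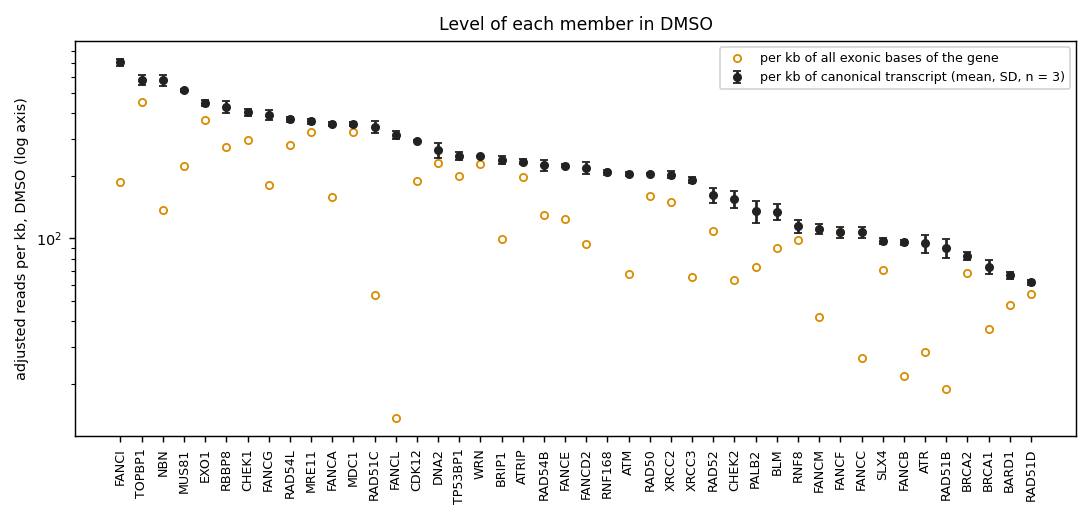
Level of each of the 44 genes in DMSO as adjusted reads per kilobase (vertical axis, logarithmic), ordered by the level per kilobase of the canonical transcript (dark points, mean and SD of 3 samples), with the level per kilobase of all exonic bases as open orange circles. FANCI at 702.4 and RAD51D at 61.4 are the ends of the dark series, and FANCL drops to 13.7 on the other scale.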

How the data were processed

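RNA of 6 OVCAR8 samples was sequenced. According to the study's methods, the authors trimmed reads, aligned them to hg38 with hisat2 and used DESeq2. The submitters' processing notes name HTSeq 0.12.4 and, in place of hg38, hg19, but the positions in the table overlap GENCODE v44 genes of GRCh38 for 99.96% of 26990 shared names. The gene models and strand setting of the counting are not given in the sources used here. The values the authors deposited are a signal per gene: counts adjusted to a common library size. They were found to be the quantile-adjusted counts of edgeR (common dispersion 0.0027), and inverting the adjustment returned whole reads, within 0.02, for 100% of the 148143 values above 0. The deposited log2 fold changes, p-values and q-values of the authors' own comparison were not used.

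Genes passing filterByExpr (at least 10 in 3 samples, 15 in total) were tested with limma 3.58.1 (R 4.3.3) on log2(value + 1), with a variance trend, two-sided, and were called at a Benjamini-Hochberg adjusted p below 0.05. The pseudocount of 1 makes changes of low genes smaller. The script was tested on simulated data. Alternatives were no filter, at least 10 in every sample, a pseudocount of 0.1, no trend, a replicate block, each sample left out, centring on the median change and, on the recovered reads, edgeR 4.0.16 (TMM and RLE) and DESeq2 1.42.0. Full values were given, by rule, for genes changed 1.5-fold and for BRCA1, BRCA2, CDK12, ATM and ATR, and up to 3 genes with the largest called change from each further list. Other genes given in full, and the overlapping genes, were added after their values were seen. The 44 genes and all lists were chosen with earlier results of these data known. A gene of the further recombination list is not reported here.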

Additional observations from a re-analysis of the deposited data

How the results depend on the processing

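Of the 20 called genes, 17 kept their call and direction in all 15 alternatives. FANCB, RAD51D and XRCC3 lost it in some, and RNF8, BRCA1, TOPBP1, RAD54B and DNA2 gained it in some. Members called ranged from 17 to 22 and all called genes from 6381 to 7836. With DESeq2 17 members passed and with edgeR 20. When single samples were left out, the number of members higher ranged from 6 to 10, the highest without DMSO replicate 2. Of the 660 values of single members over the alternatives, 626 kept direction and side of the threshold, 23 lost the call, 9 gained it and 2 reversed, which were ATR and FANCD2 without DMSO replicate 2, both uncalled. With a sample left out, ATR ranged from -0.11 to 0.031 and FANCD2 from -0.063 to 0.030 on the log2 scale. The cause of these changes was not tested.

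Further Fanconi genes higher numbered 1 with no variance trend and 1 to 2 with a sample left out, and those lower 1 with no variance trend, 3 with DESeq2 and 3 to 4 with a sample left out. End joining genes higher numbered 2 to 5 with a sample left out. Of the CDK12 partners, 1 was higher with at least 10 in every sample, with edgeR under TMM and RLE and after centring, and 0 to 1 with a sample left out.

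The deviations of same-numbered samples correlated at -0.02 to 0.003, which gave no sign that the replicate numbers pair the samples. With 3 samples per group this cannot show that same-numbered samples were handled apart. With the replicate block, 19 members passed (6 higher, 13 lower), RAD51D being lost (adjusted p = 0.055), and 7349 of all genes. At these depths the intervals of the uncalled members reached from -0.55 to 0.33, so changes under 1.5-fold may go undetected.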
